A study of Mus musculus with 8 samples.

Results

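Kinesins and cytoplasmic dynein are the motors that carry cargo along microtubules, and the proteins described with them here either hold these motors together or set how long and how stable the microtubules are. Most kinesins walk towards the growing plus end of the microtubule and dynein walks to the minus end, with dynactin as its cofactor. In heart muscle cells these tracks run between the myofibrils and around the nucleus, carry mitochondria, membrane proteins and mRNA, and become denser in hypertrophied hearts.

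The members are the genes whose symbols belong to the kinesins (KIF), kinesin light chains (KLC), dynein chains (DYNC and DYNL), dynactin subunits (DCTN), the microtubule-associated proteins MAP1A, MAP1B, MAP1S, MAP2, MAP4 and MAP7, the end-binding proteins (MAPRE), CLASP1, CLASP2 and the stathmins (STMN), and that had at least 16 counts summed over 8 libraries. Of the 33514 rows in the table, 82 carry such a symbol and 30 reached the minimum; 22 had fewer counts and 30 were at 0 in all libraries. The sum used both groups together, so it set which genes are measurable and not their difference. Just inside the minimum were KIF5A with 16 counts and MAP1B with 18, and just outside it KLC1 with 13 and DCTN2, DCTN4 and KIF21B with 12 each.

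The libraries are RNA-seq of isolated and cultured cardiomyocytes of adult C57BL/6 mice. Of the 8 libraries, 4 carry an siRNA against Hoxa5, a homeobox transcription factor (siHoxa5), and 4 a control siRNA (siN). All 8 received phenylephrine, an alpha1-adrenergic agonist that drives hypertrophic growth, at 100 µM for 24 h, starting 24 h after transfection, so every value below is from phenylephrine-treated cells. Nothing in the labels tells whether the 4 libraries of each group are from different mice or dishes, so p-values describe the spread between libraries, which may be technical.

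The siHoxa5 libraries held 560190 to 619942 counts and the siN libraries 635824 to 658192, of which the 30 members took 1905 to 2369 counts in siHoxa5 and 2153 to 2284 in siN. HOXA5 itself had 9 counts in siHoxa5 against 8 in siN (ratio of rates 1.24, exact 95% interval 0.426 to 3.70), so a lower level of the siRNA target was not detectable at this depth, and every direction given here goes by the library labels. Of 16 cardiomyocyte markers 10 had counts, with the myosin heavy chains MYH6 and MYH7 on top, while TNNI3, MYL2, MYL3, PLN, TCAP and MB were at 0 in all libraries. Their summed level was 66539 to 71429.9 CPM (read counts scaled to library size, after TMM normalization) in siHoxa5 and 53002 to 56409 CPM in siN. Of 10 fibroblast markers 7 had counts, nearly all from COL1A1 and COL1A2, with a summed level of 10810.5 to 12708 CPM in siHoxa5 and 10095 to 10788 CPM in siN, and with LUM, TCF21 and MFAP5 at 0. The 5 lists of endothelial, smooth muscle, macrophage, lymphocyte and epicardial markers reached at most 56.4 CPM in any library, and the Schwann cell and neuron list 217 to 238 CPM in siHoxa5 and 197 to 276 CPM in siN. The cardiomyocyte sum is mostly MYH6 and MYH7, and its members went both ways. Of 9 tested, MYH6 (0.48), MYH7 (0.24), ACTN2 (0.31) and TTN (0.51) rose and TNNT2 fell (-0.44, adjusted p = 0.0257 in edgeR). The 4 that did not pass were RYR2 (0.47), MYBPC3 (0.50), TNNC1 (-0.14) and ACTC1 (-0.026). All these values are log2 fold changes. The part of these markers in the values below was not tested. On the first principal component of all tested genes, which held 25.8% of the variance, siHoxa5 libraries 2 and 4 scored -10.8 and -10.9 and siHoxa5 libraries 1 and 3 -2.74 and -4.69, against 6.30 to 7.77 in siN. Values without siHoxa5 libraries 2 and 4 are given for members whose log2 fold change moved by over 1.5 times or whose call was lost. In bulk RNA, fewer cells of a type and less RNA per cell cannot be told apart.

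KIF5B, the widely expressed heavy chain of conventional kinesin, dominated the set. It held 36.8% of the members' counts and 70.2% of those of the 12 kinesin motors. Per kilobase of transcript its mean level over the 8 libraries was 217 CPM per kb, against 99.3 for DYNLL2, 91.9 for MAPRE3, 84.6 for DYNLL1 and 63.2 for MAP4. The other cargo kinesins were far lower on this scale, at 40.0 CPM per kb for KIF1C, 9.61 for KIF1B and between 0.52 and 1.99 for KIF16B, KIF3B, KIF5C, KIF1A, KIF3C and KIF5A. KIF5A, KIF5C and KIF1A, known mainly from neurons, and KIF3C (0.75) sat near the bottom, but so did KIF3B (1.97) and KIF16B (1.99). A low value may not measure the level in the cells, since cardiomyocyte markers such as MYL2 and PLN were at 0 in all libraries. DYNC1H1, the dynein heavy chain, had 4.13 CPM per kb. KIF4A was the single member with no gene of that name in the annotation, and is given no level per kb. How the authors divided reads between similar genes is not stated, which limits any comparison between genes.

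**Figure D1:**
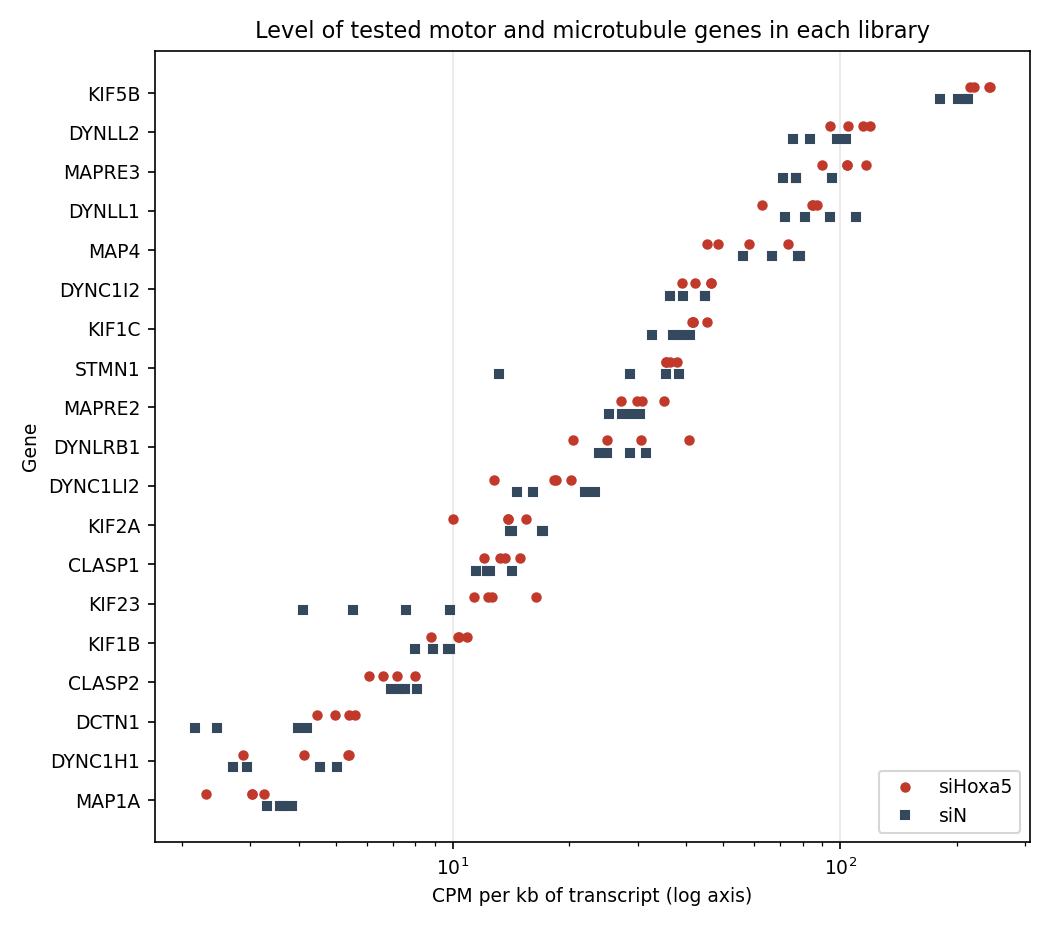
Level of the 19 tested members that have a transcript length, in CPM per kb of transcript (log axis), 1 point per library, siHoxa5 as circles and siN as squares. KIF5B is highest (217 CPM per kb on average) and MAP1A lowest (3.26), and for 14 of the 19 genes the ranges of the groups overlap.

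Of the 30 members, 20 passed the filter on low counts and entered the test. KIF23, MAPRE3 and KIF5B rose in the siHoxa5 libraries, no member fell, and 17 did not pass (edgeR's quasi-likelihood F test, with p adjusted by Benjamini-Hochberg over all 3020 genes tested and a threshold of 0.05). Over all genes tested, 7.12% were called, 3.74% higher and 3.38% lower, while 3 of the 20 members (15.0%) were called higher. The median log2 fold change of the 20 was 0.13, that of all genes tested -0.0037. Of the 20, 14 had a positive and 6 a negative value, against 49.4% positive over all genes tested, and 5 had an unadjusted p under 0.05, against 19.6% of all genes tested. The CPM ranges of the groups did not overlap for 5 members (KIF23, KIF5B, KIF1C and DCTN1 higher, MAP1A lower), against 11.9% of all genes tested. DESeq2 called none of the 20, with 4 at an unadjusted p under 0.05. It gave no adjusted p for DCTN1 and DYNLRB1 (unadjusted p of 0.109 and 0.767 in DESeq2), so these could not be called there. Leaving out single libraries changed which of the 3 passed in edgeR, as given with each gene.

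**Figure D2:**
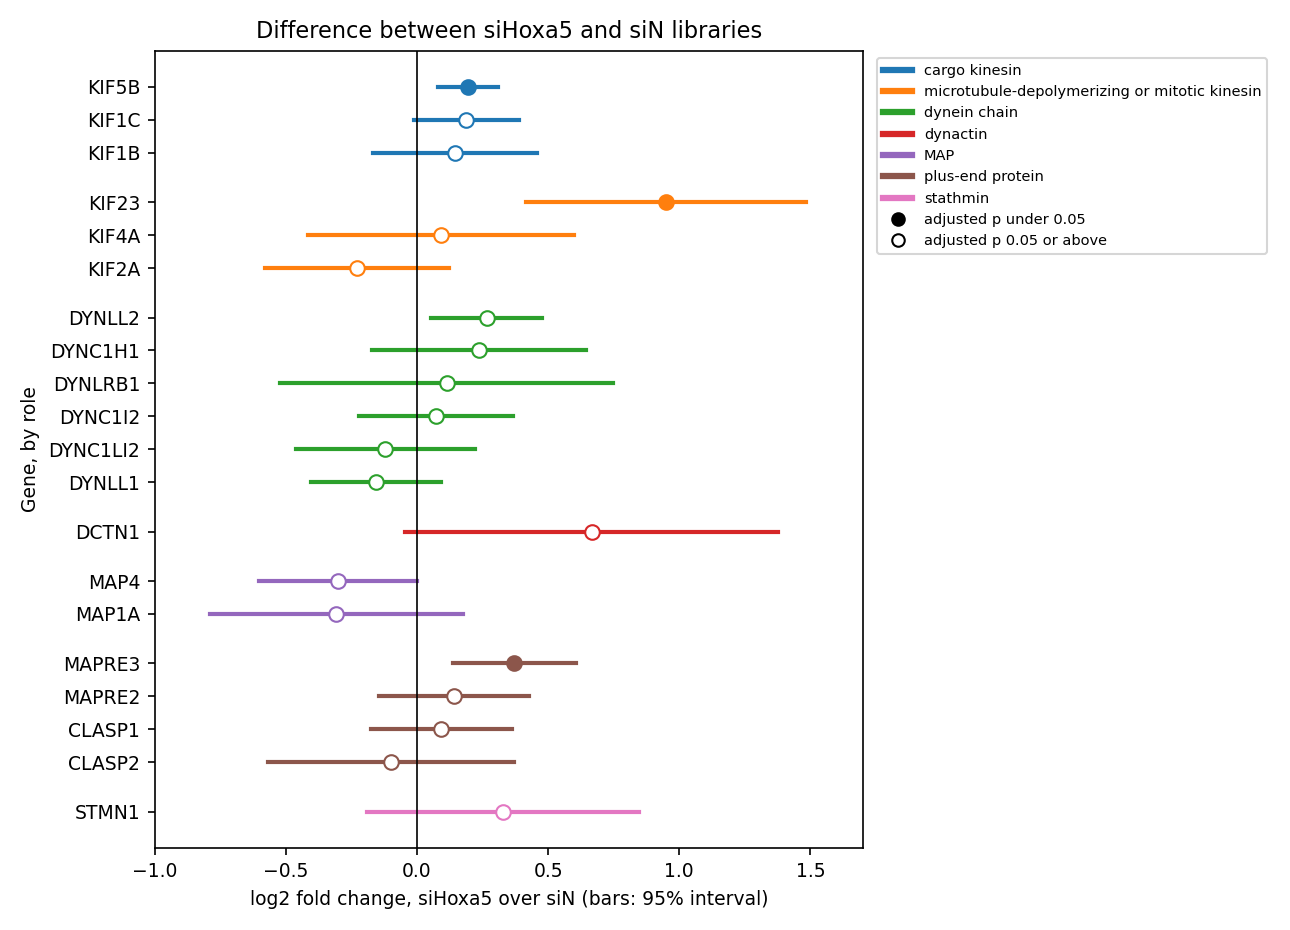
Log2 fold change of the 20 tested members, siHoxa5 over siN, grouped by role, with the 95% interval of the edgeR fit as a bar and filled points for adjusted p under 0.05. The filled points are KIF5B (0.20), KIF23 (0.95) and MAPRE3 (0.37), and the largest negative value is that of MAP1A (-0.31).

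Among cargo kinesins, KIF5B had 1307, 1465, 1469.9 and 1339 CPM in siHoxa5 libraries 1 to 4, against 1276, 1291, 1219 and 1091 CPM in siN libraries 1 to 4. All 4 siHoxa5 libraries lay above all 4 siN libraries, by little for siHoxa5 library 1, and siN library 4 was the lowest. The means were 1395 ± 84.2 CPM in siHoxa5 and 1219 ± 91.2 CPM in siN libraries (SD, n = 4 each), that is, a log2 fold change of 0.20 (SE 0.058, adjusted p = 0.0218), or 1.14-fold. Mouse Kif5b lies on chromosome 18, 6201002 to 6242174, minus strand (GRCm38). Across all tested genes longer transcripts tended to have higher fold changes in siHoxa5 (Spearman correlation 0.219 across genes, which are not independent replicates), and once the trend of log counts on length and GC had been taken out of each library KIF5B stood at 0.13 and did not pass (adjusted p = 0.152). DESeq2 did not call it, nor did the edgeR fits that dropped siHoxa5 library 2, siHoxa5 library 3, siN library 3 or siN library 4, and its call was kept without siHoxa5 libraries 2 and 4 together (0.19).

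KIF1C, a kinesin that moves vesicles and mRNA, had 303, 279, 278 and 278 CPM in siHoxa5 libraries 1 to 4, against 273, 260.1, 246.9 and 219 CPM in siN libraries 1 to 4. The groups did not overlap here either, since siHoxa5 libraries 2 to 4 lay within 1 CPM of each other and above the highest siN library, yet the difference did not pass, with a log2 fold change of 0.19 (SE 0.10, adjusted p = 0.287). KIF1B, which carries mitochondria and synaptic vesicle precursors, ranged from 90.1 to 111 CPM in siHoxa5 and from 82.0 to 101 CPM in siN, with a log2 fold change of 0.14 (SE 0.16, adjusted p = 0.676), or 0.078 without siHoxa5 libraries 2 and 4. All 3 tested cargo kinesins had positive values. The other 6, KIF16B, KIF3B, KIF3C, KIF1A, KIF5A and KIF5C, had 16 to 63 counts in all and were under the filter. When every gene with at least 16 counts was kept, the 10 members under the filter were tested too, and none passed (adjusted p of 0.597 to 0.999 in edgeR). KIF16B, a motor of early endosomes, had 36 counts in siHoxa5 against 27 in siN (ratio of rates 1.47, exact 95% interval 0.87 to 2.52; the interval covers counting error only). In KIF16B the 14 counts of siHoxa5 library 1 and the 2 counts of siN library 1 were the extremes, and the other 6 libraries had 6 to 9. KIF3B, a subunit of heterotrimeric kinesin, had 26 counts in siHoxa5 against 29 in siN, and KIF3C, its relative, 13 counts in siHoxa5 against 12 in siN. KIF1A had 18 counts in siHoxa5 against 15 in siN, KIF5C 13 counts in siHoxa5 against 18 in siN and KIF5A 10 counts in siHoxa5 against 6 in siN, and the exact interval of each of these ratios includes 1. KLC2, a light chain that links conventional kinesin to cargo, had 20 counts in siHoxa5 against 27 in siN (ratio of rates 0.818, exact 95% interval 0.435 to 1.51).

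KIF23 had the largest change of the tested members. It is a subunit of centralspindlin, the complex that bundles microtubules between separating chromosomes and is needed for cytokinesis. KIF23 had 41.9, 55.7, 38.6 and 43.0 CPM in siHoxa5 libraries 1 to 4, against 33.4, 18.8, 14.0 and 25.7 CPM in siN libraries 1 to 4. Every siHoxa5 library lay above every siN library, siHoxa5 library 2 was the highest, and the siN libraries spread over a range of more than their lowest value. The means were 44.8 ± 7.51 CPM in siHoxa5 and 23.0 ± 8.45 CPM in siN libraries (SD, n = 4 each), that is, a log2 fold change of 0.95 (SE 0.27, adjusted p = 0.0138) with a 95% interval of 0.42 to 1.48. The raw counts behind it were small, 24 to 31 in siHoxa5 and 9 to 22 in siN. The call was lost with DESeq2 (adjusted p = 0.0563), without siHoxa5 library 2 (0.83), without siN library 2 or 3 (0.87 and 0.77) and without siHoxa5 libraries 2 and 4 together (0.81).

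Proliferation markers were read beside KIF23. Of 14 such markers 8 had counts and 2 were tested; TOP2A, the topoisomerase of dividing cells, rose by 0.44 (SE 0.14, adjusted p = 0.0394) and CCNA2, cyclin A, had 0.26 (SE 0.26, adjusted p = 0.639). The summed level of the list was 167 to 224 CPM in siHoxa5 and 144 to 153 CPM in siN, mostly from TOP2A and CCNA2. No other marker had more than 5 counts in a library. CDK1, CCNB2, BUB1, AURKA, AURKB and BIRC5 were at 0 in every library. MKI67 had 5 counts in siHoxa5 and 2 in siN, while CENPF had at most 1 per library in siHoxa5 and up to 2 in siN. The part of dividing cells in the KIF23 value was not tested. KIF4A, a chromosome-bound kinesin that also works in cell division, had 41.9, 35.9, 33.8 and 32.3 CPM in siHoxa5 libraries 1 to 4, against 30.4, 31.3, 43.5 and 30.2 CPM in siN libraries 1 to 4. Its groups overlapped, and its log2 fold change was 0.092 (SE 0.26, adjusted p = 0.899), 0.23 without siN library 3, 0.0087 without siHoxa5 library 1 and 0.17 without siHoxa5 libraries 2 and 4. KIF2A, which takes microtubules apart from their ends rather than walking along them, had 82.1, 73.7, 53.1 and 73.5 CPM in siHoxa5 libraries 1 to 4, against 74.4, 90.9, 90.1 and 75.5 CPM in siN libraries 1 to 4. The groups overlapped, siHoxa5 library 3 was the lowest of the 8, and the log2 fold change was -0.23 (SE 0.18, adjusted p = 0.523), or -0.11 without that library.

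The promoter of Kif23 is shown because this member changed most. It is the RefSeq window of GRCm38.p6 with 250 bases before and 50 after the annotated start, chr9:61946750-61947049, printed 5′ to 3′ on the minus strand, which is the gene's. Capitals mark matches on either strand to CCAAT (a box common in promoters of dividing-cell genes), to TTTGAA (a form of the cell cycle homology region of such genes) and to TAAT (the core bound by HOX proteins).
Kif23: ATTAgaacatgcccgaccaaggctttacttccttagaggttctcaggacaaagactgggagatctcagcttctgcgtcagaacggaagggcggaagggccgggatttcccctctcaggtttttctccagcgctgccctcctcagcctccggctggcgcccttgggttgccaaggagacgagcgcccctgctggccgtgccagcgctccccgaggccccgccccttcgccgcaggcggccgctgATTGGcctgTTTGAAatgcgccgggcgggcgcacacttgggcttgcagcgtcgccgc

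In Kif23, CCAAT reads as ATTGG on the printed strand, 7 bases before the start, and TTTGAA begins at base 3 after it, so both stand close to the start site. A TAAT match lies at the far end of the window, 250 bases before the start. Of 32851 promoter windows of this length, 37.4% hold CCAAT, 17.9% TTTGAA, 6.95% both and 58.0% TAAT. Of the 20 members with a listed promoter, 8 hold CCAAT in at least 1 window, 4 TTTGAA and 12 TAAT. These members are counted by gene over 30 windows and the shares above by window, so they are not like measures. Neither of the 2 Mapre3 windows holds any of the motifs, and Kif5b has no listed window. A window of Clasp2, a member without a call (log2 fold change -0.10), holds all of them, as that of Kif23 does. A match is a description of letters, not of binding.

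MAPRE3 encodes an end-binding protein (EB3) that tracks growing plus ends and is known from muscle and brain. MAPRE3 had 211, 235, 211 and 181 CPM in siHoxa5 libraries 1 to 4, against 193, 144, 155 and 156 CPM in siN libraries 1 to 4. The groups overlapped, because siN library 1 was higher than siHoxa5 library 4, while the other 3 siHoxa5 libraries lay above all siN libraries. The means were 209.5 ± 22.2 CPM in siHoxa5 and 162 ± 21.2 CPM in siN libraries (SD, n = 4 each), that is, a log2 fold change of 0.37 (SE 0.12, adjusted p = 0.035) with a 95% interval of 0.14 to 0.61. Mouse Mapre3 lies on chromosome 5, 30814641 to 30866106, plus strand (GRCm38). After removal of the length and GC trend it stood at 0.45, and it passed. It did not pass with DESeq2, with no filter, without siHoxa5 library 2 or 3, without siN library 2, 3 or 4, or without siHoxa5 libraries 2 and 4 together, with values of 0.31 to 0.38 in those fits.

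The other plus-end proteins gave no call. MAPRE2, a second end-binding protein, had 142, 109.6, 124 and 120.1 CPM in siHoxa5 libraries 1 to 4, against 102, 116, 123 and 110.3 CPM in siN libraries 1 to 4. Its groups overlapped, and its log2 fold change was 0.14 (SE 0.14, adjusted p = 0.651), 0.069 without siHoxa5 library 1 and 0.24 without siHoxa5 libraries 2 and 4. CLASP1 and CLASP2 rescue shrinking microtubules; CLASP1 averaged 138 ± 11.8 CPM in siHoxa5 and 129 ± 11.7 CPM in siN libraries (SD, n = 4 each) with a log2 fold change of 0.093 (SE 0.14, adjusted p = 0.771), or 0.033 without siHoxa5 libraries 2 and 4. CLASP2 averaged 39.1 ± 4.59 CPM in siHoxa5 and 41.9 ± 2.72 CPM in siN libraries (SD, n = 4 each) with a log2 fold change of -0.10 (SE 0.24, adjusted p = 0.875). MAPRE1, the most studied end-binding protein, had 4 counts in all and is not a member. Whether MAPRE3 differs from MAPRE2 in its response was not tested, and the 95% interval of MAPRE2 (-0.14 to 0.43) overlaps that of MAPRE3.

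**Figure D3:**
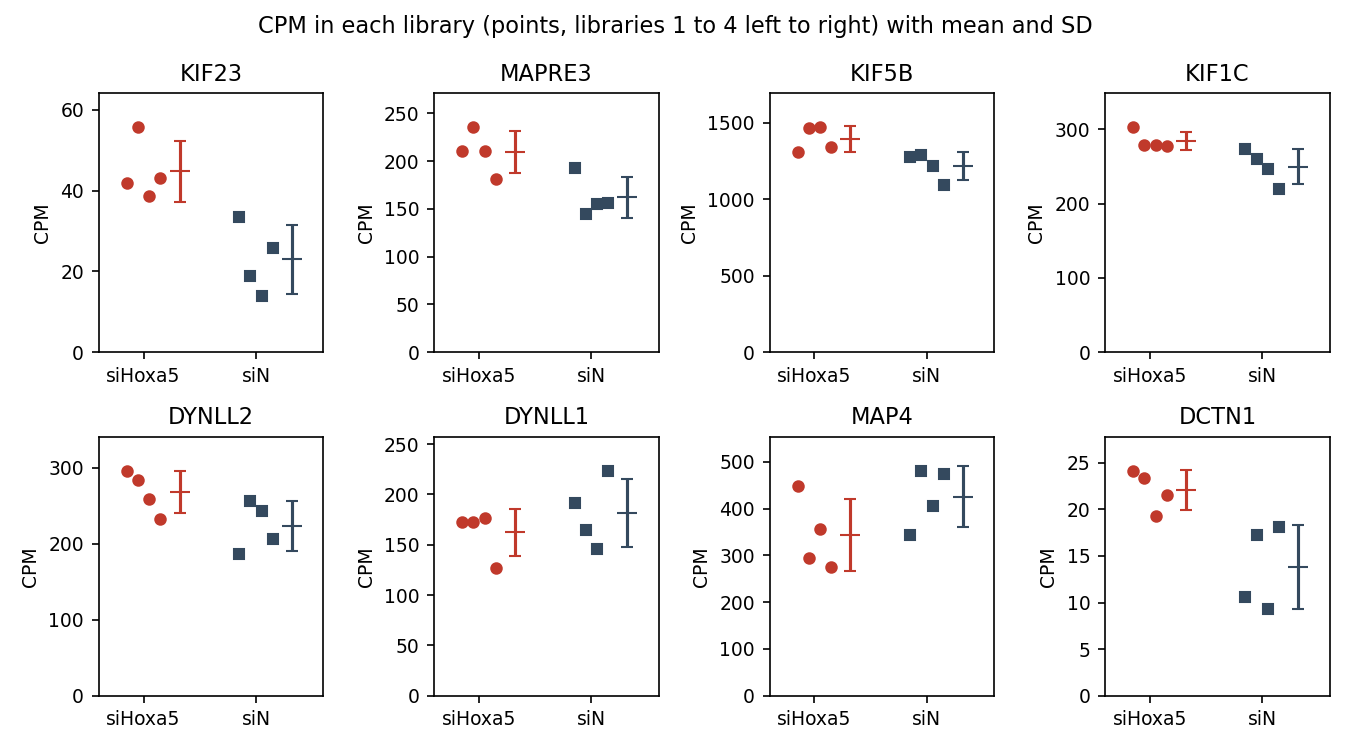
CPM of 8 members in each library, siHoxa5 (circles) left of siN (squares), libraries 1 to 4 from left to right within a group, with the mean and SD beside them and the vertical axis from 0. For KIF23, KIF5B, KIF1C and DCTN1 the siHoxa5 points lie above the siN points, and for MAPRE3, DYNLL2, DYNLL1 and MAP4 the groups overlap.

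No dynein chain passed the test. The pair DYNLL1 and DYNLL2 encodes the LC8 light chains, small dimeric hubs that bind dynein and many other proteins. DYNLL2 had 296, 284, 259 and 233 CPM in siHoxa5 libraries 1 to 4, against 187, 257, 244 and 207 CPM in siN libraries 1 to 4. Its siHoxa5 libraries 1 to 3 lay above all siN libraries and library 4 did not, and the log2 fold change was 0.27 (SE 0.11, adjusted p = 0.123). It passed with the length and GC trend removed (0.33, adjusted p = 0.0429 in edgeR), also with a replicate block added to that (0.33, adjusted p = 0.0261), and without siHoxa5 library 4 (0.32). In the other 13 of 16 settings it did not pass. DYNLL1 had 172, 173, 177 and 127 CPM in siHoxa5 libraries 1 to 4, against 191, 165, 146 and 224 CPM in siN libraries 1 to 4. Here siHoxa5 library 4 was the lowest and siN library 4 the highest, the groups overlapped, and the log2 fold change was -0.16 (SE 0.13, adjusted p = 0.534), -0.041 without siN library 4 and -0.051 without siHoxa5 libraries 2 and 4. The 2 values differ in sign, and the difference between them was not tested.

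The start of their coding sequences is printed to show how alike the genes of this pair are in the part that is translated; most of each transcript (2030 bases for Dynll1 and 2476 for Dynll2) is untranslated and was not compared. The GENCODE M21 coding sequences are 270 bases long in both genes and share 81.1% of their bases, with 51 differences and no identical run longer than 16 bases. The first 90 bases of each, starting at the start codon and with the 18 differing positions in capitals, read as follows.
Dynll1: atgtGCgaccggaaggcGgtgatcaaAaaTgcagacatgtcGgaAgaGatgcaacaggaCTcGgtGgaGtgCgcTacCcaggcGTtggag
Dynll2: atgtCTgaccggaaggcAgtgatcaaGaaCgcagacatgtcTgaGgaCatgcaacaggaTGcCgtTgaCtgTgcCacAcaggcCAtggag

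Between other related members the longest identical run of coding bases was 20 for Kif5b and Kif5c, 17 for Kif5a and Kif5b, 26 for Mapre2 and Mapre3, 29 for Clasp1 and Clasp2, 33 for Kif1a and Kif1b and 43 for Stmn1 and Stmn2. The sources used here give no read length, so how many reads could match both genes of a pair was not tested.

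Of the other dynein chains, DYNC1H1, the motor-bearing heavy chain, had 77.3, 59.3, 77.2 and 41.2 CPM in siHoxa5 libraries 1 to 4, against 65.3, 72.1, 38.8 and 42.3 CPM in siN libraries 1 to 4. The 2 highest libraries were siHoxa5 1 and 3 and the lowest was siN 3, the groups overlapped, and the log2 fold change was 0.24 (SE 0.21, adjusted p = 0.585). It was 0.10 to 0.40 with single libraries left out and 0.51 without siHoxa5 libraries 2 and 4 (adjusted p = 0.218), and did not pass in any of these fits. DYNC1I2, an intermediate chain that anchors cargo, averaged 115 ± 9.31 CPM in siHoxa5 and 109 ± 11.1 CPM in siN libraries (SD, n = 4 each), that is, a log2 fold change of 0.072 (SE 0.15, adjusted p = 0.856), or -0.017 without siHoxa5 libraries 2 and 4. DYNC1LI2, a light intermediate chain, averaged 80.6 ± 14.8 CPM in siHoxa5 and 88.0 ± 19.7 CPM in siN libraries (SD, n = 4 each), that is, a log2 fold change of -0.12 (SE 0.17, adjusted p = 0.765), or 0.027 without siHoxa5 libraries 2 and 4. DYNLRB1, a light chain of the roadblock family, had 9 to 20 counts per library and a log2 fold change of 0.11 (SE 0.32, adjusted p = 0.899), or 0.39 without siHoxa5 libraries 2 and 4. DYNC2H1, the heavy chain of the dynein of cilia, had 16 counts in siHoxa5 against 11 in siN (ratio of rates 1.61, exact 95% interval 0.7 to 3.83) and was under the filter. DCTN1, the dynactin subunit that binds both dynein and the microtubule, had 24.1, 23.4, 19.3 and 21.5 CPM in siHoxa5 libraries 1 to 4, against 10.6, 17.2, 9.32 and 18.1 CPM in siN libraries 1 to 4. All siHoxa5 libraries lay above all siN libraries, on 6 to 15 counts each, and the log2 fold change of 0.67 (SE 0.36, adjusted p = 0.289) did not pass; its 95% interval was -0.044 to 1.38.

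MAP4, the main microtubule-stabilizing protein outside neurons, was the second most counted member and had a negative value that did not pass. It had 448, 295, 355 and 276 CPM in siHoxa5 libraries 1 to 4, against 343, 481, 405 and 474 CPM in siN libraries 1 to 4. The siHoxa5 libraries spread widely, with library 1 among the higher values of all 8 and libraries 2 and 4 the lowest, and the groups overlapped. The means were 343 ± 77.2 CPM in siHoxa5 and 426 ± 65.0 CPM in siN libraries (SD, n = 4 each), that is, a log2 fold change of -0.30 (SE 0.14, adjusted p = 0.253). Whether it passed depended on the libraries kept and on the settings. Without siHoxa5 library 1 it was -0.46 (adjusted p = 8.94e-05), without siN library 1 -0.39 (adjusted p = 0.0434), and without siHoxa5 libraries 2 and 4 together -0.079 (adjusted p = 0.769). With all 8 libraries it passed with no filter on low counts (adjusted p = 0.0461) and with a replicate block and the length and GC trend removed (adjusted p = 0.0475), and not in the other fits.

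MAP1A, a large protein known to stabilize microtubules in neurons, had 38.6, 35.9, 27.3 and 35.9 CPM in siHoxa5 libraries 1 to 4, against 42.5, 45.4, 43.5 and 39.3 CPM in siN libraries 1 to 4. All siHoxa5 libraries lay below all siN libraries, yet on 17 to 29 counts each the log2 fold change of -0.31 (SE 0.24, adjusted p = 0.532) did not pass. MAP1B, its relative, had 11 counts in siHoxa5 against 7 in siN and was under the filter, MAP2 had 6 counts and MAP7 had 1 count in all. STMN1, stathmin, which binds free tubulin and favours disassembly, had 40.2, 37.7, 38.6 and 37.7 CPM in siHoxa5 libraries 1 to 4, against 30.4, 40.7, 14.0 and 37.8 CPM in siN libraries 1 to 4. siN library 3 stood well below the other 7 libraries, the groups overlapped, and the log2 fold change was 0.33 (SE 0.26, adjusted p = 0.537), or 0.089 without that library. STMN2, the stathmin of neurons, had 26 counts in siHoxa5 against 31 in siN (ratio of rates 0.926, exact 95% interval 0.528 to 1.61).

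**Figure D4:**
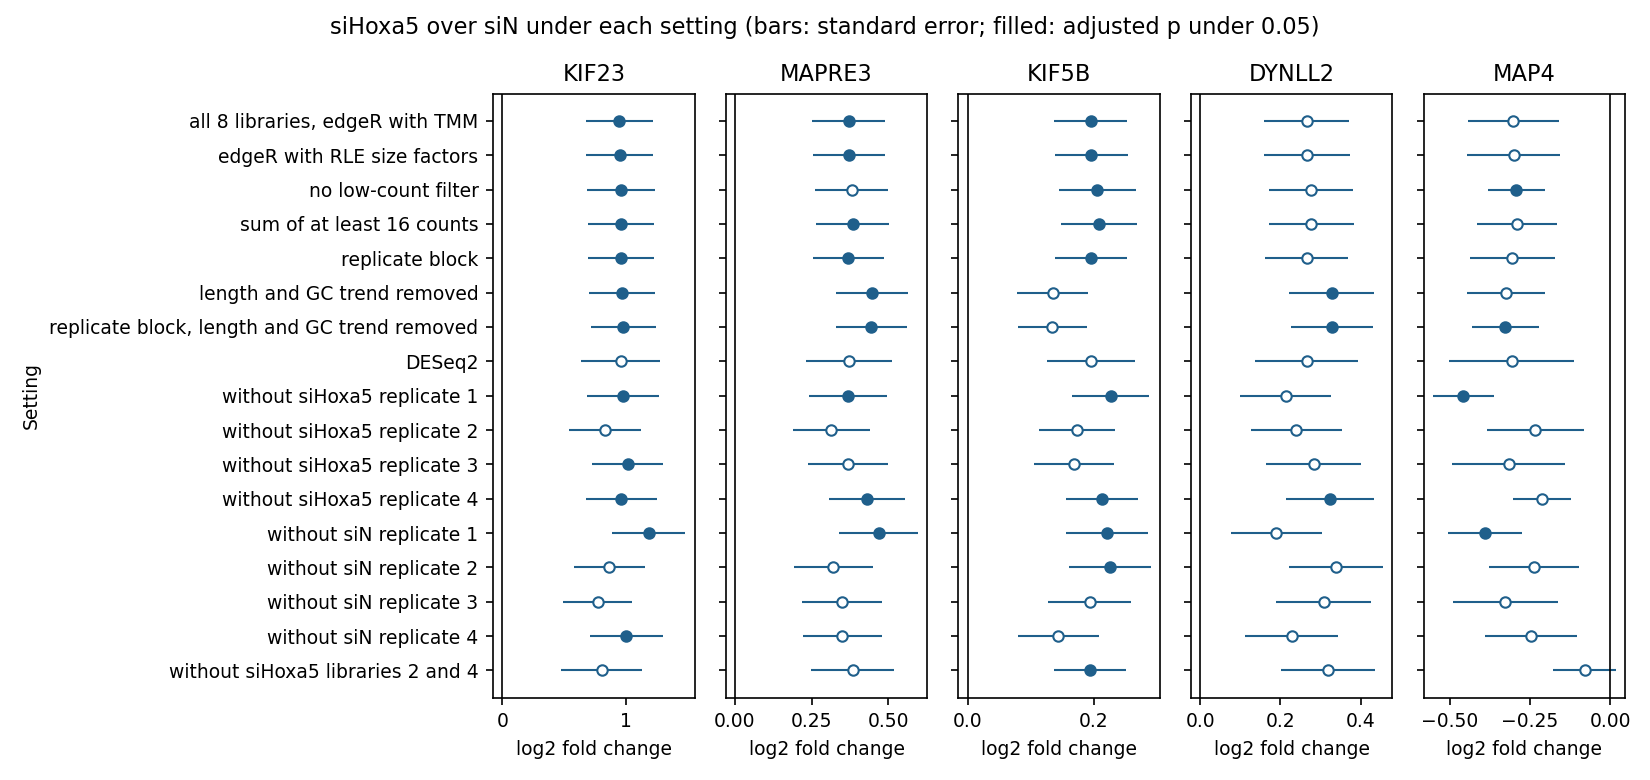
Log2 fold change (siHoxa5 over siN, bars are the standard error) of 5 members in the fit of all 8 libraries and under 16 other settings, with filled points for adjusted p under 0.05. KIF23 lies between 0.77 and 1.19 and KIF5B between 0.13 and 0.23, while MAP4 lies between -0.46 and -0.079; none of the 5 changes sign.

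The tracks and the partners of these motors were read from the same fit. Of 135 other microtubule genes listed (tubulins, adaptors of dynein and kinesin, further microtubule-associated, severing, tubulin-modifying and tubulin-folding proteins), 82 had a count and 38 were tested. None rose, 3 fell and 35 did not pass, with a median log2 fold change of -0.018. Over all genes tested 7.12% were called, 3.74% higher and 3.38% lower. Of 10 tested tubulins 2 fell, against the same 3.38%. TUBA1A, an alpha-tubulin, had 2019, 1975, 1886 and 2040.5 CPM in siHoxa5 libraries 1 to 4, against 2346, 2402, 2354 and 2541 CPM in siN libraries 1 to 4. The groups did not overlap, and the log2 fold change was -0.28 (SE 0.052, adjusted p = 1.62e-05). Alpha-tubulin genes are close copies of each other, so the split of reads between TUBA1A and its relatives is uncertain. TUBB6, a beta-tubulin raised when muscle regenerates, had 554, 482, 566 and 581 CPM in siHoxa5 libraries 1 to 4, against 674, 744, 666 and 679.8 CPM in siN libraries 1 to 4. The groups did not overlap there either, and the log2 fold change was -0.34 (SE 0.073, adjusted p = 0.000393). NDEL1, a dynein regulator that works with LIS1, had 618, 639.7, 653 and 631 CPM in siHoxa5 libraries 1 to 4, against 742, 766, 742 and 702 CPM in siN libraries 1 to 4. All siHoxa5 libraries lay below all siN libraries; the log2 fold change was -0.22 (SE 0.069, adjusted p = 0.0361), and it kept its call in 3 of the 16 other settings. PAFAH1B1, which encodes LIS1, had -0.039 (SE 0.051, adjusted p = 0.746), and ACTR1A, which forms the filament of dynactin, 0.015 (SE 0.062, adjusted p = 0.931). TUBA1A and TUBB6 had values of opposite sign to those of KIF5B, MAPRE3 and KIF23, and both were called under all 16 settings. With the length and GC trend removed, TUBA1A stood at -0.20, TUBB6 at -0.25 and NDEL1 at -0.15, where NDEL1 did not pass (adjusted p = 0.187 in edgeR). In that fit KIF5B stood at 0.13, MAPRE3 at 0.45 and KIF23 at 0.97. The contrast between tubulins and motors was not tested.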

How the data were processed

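Per the labels' protocols, poly-A RNA was selected with poly-T beads and sequenced as TruSeq libraries on a NovaSeq. The submitters' processing notes name the mm10 build, STAR 2.6.1b, HTSeq, FastQC 0.11.8 and R 3.5.3. The sources used here do not give the annotation, strand setting or handling of shared reads. The deposited values are estimated counts per gene symbol that the authors did not normalize, whole except in 4 rows that hold values ending in 0.5. Each library's own file was identical to its column of the series table (8 of 8). The symbols are spelled as human genes are. They were matched to GENCODE M21 (GRCm38) ignoring case, or through a RefSeq synonym where no name matched, and 29 of 30 members matched. Rows named DYNLT1, KIF25, KIF25-AS1, KIF26B-AS1, KIF9-AS1 and DCTN1-AS1, all at 0, matched no gene there. How a build of mm10 led to these symbols is not given. The mouse lengths, GC content, coordinates and promoters used here rest on the match of names alone.

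Counts were rounded and tested with edgeR 4.0.16 (quasi-likelihood, robust, TMM, filterByExpr with minimum count 10 and minimum total 15; R 4.3.3), with group as the only term and Benjamini-Hochberg adjustment at 0.05 over 3020 genes, which held 98.6% of counts. CPM values use TMM-scaled totals, and levels per kb the longest protein-coding transcript. Intervals of rate ratios are exact (scipy 1.17.1) and cover counting error only. Log2 fold changes had a standard error of 0.169 in the median. The fit was also run on counts simulated from its own estimates of spread, with known changes. That run checks the code and does not bear on the calls given here. Alternatives were DESeq2 1.42.0, RLE scaling, other filters, single libraries left out, a replicate block, and removal of each library's spline trend on transcript length and GC content.

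The members and gene lists were chosen with earlier results of these data known. Values per library are given for members past the threshold, for the 2 tested members with the highest CPM per kb and the one with the smallest p in each role group, and for other microtubule genes past the threshold or among the 3 smallest p. KIF4A, DYNC1H1, PAFAH1B1 and ACTR1A were described in more detail after their values were seen. Promoters are from RefSeq (GRCm38.p6) and coding sequences from GENCODE M21.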

Additional observations from a re-analysis of the deposited data

Results flagged for a closer look

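Of 60 groups of 4 libraries (30 members in siHoxa5 and in siN), 4 held a library far from the other 3. That is close to the rate of about 1 in 20 that chance gives. KIF1C in siHoxa5 library 1 was 303 CPM, against 279 CPM in the nearest library and 278 CPM in the lowest. DYNLL1 in siHoxa5 library 4 was 127 CPM, below 172 to 177 CPM in the other 3. KIF4A in siN library 3 was 43.5 CPM, above 30.2 to 31.3 CPM in the others. KIF3B in siN library 1 was 6.07 CPM, on 4 counts, below 12.4 to 13.6 CPM in the others.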

How the results depend on the processing

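The count of all called genes (215) was 119 with DESeq2, 143 without siHoxa5 libraries 2 and 4, and 145 to 260 with single libraries left out. The members called (3) were 0 with DESeq2, 1 without siHoxa5 libraries 2 and 4, and 0 to 4 with single libraries left out: 0 without siHoxa5 library 2 and without siN library 3, 1 without siHoxa5 library 3 and without siN library 2 or 4, and 4 without siHoxa5 library 1 or 4 and without siN library 1. Where 0 were called, 4 had an unadjusted p under 0.05. The other microtubule genes called (3) were 2 to 3 with single libraries left out. With a replicate block 250 genes and 3 members were called; same-numbered libraries had correlations of residuals of -0.0201 to 0.0662 and not every library matched its own number best, so the numbers were not treated as pairs. With the block and the length and GC trend removed 213 genes and 4 members were called. Of 320 values (20 tested members under 16 settings), 290 kept direction and side of the threshold, 20 lost and 7 gained a call, and 3 changed sign: DYNC1I2 (-0.017) and DYNC1LI2 (0.027) without siHoxa5 libraries 2 and 4, and DYNLRB1 (-0.094) without siHoxa5 library 1. The 290 include DCTN1 and DYNLRB1 under DESeq2, which gave them no adjusted p. With single libraries left out DYNLRB1 ranged from -0.094 to 0.24. Of the 17 members without a call, 15 had none under any setting. The causes were not tested. Depth limits the 10 members under the filter. Their rate ratios stayed within their exact intervals in 90 of 90 recalculations. Those intervals come from the same counts and are wide (0.606 to 6.16 for KIF5A), so a ratio could hardly leave them and this is no measure of stability.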

Other observations

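Several members work in complexes whose other subunits were nearly or fully without counts in the same libraries; these examples were chosen after their values were seen. KIF3B had 26 counts in siHoxa5 and 29 in siN, while KIF3A, with which it forms a heterodimer, had 0 in all 8 libraries, which allows up to 3 counts or 0.605 CPM over the series, and KIFAP3, their accessory subunit, had 3 counts. DYNC1LI2 had 191 counts in siHoxa5 and 229 in siN, and its relative DYNC1LI1 had 1 count in all. DCTN1 had 52 counts in siHoxa5 and 36 in siN, DCTN2, DCTN3, DCTN4 and DCTN5 had 12, 11, 12 and 5 in all, and DCTN6 had 0, although ACTR1A, the filament of the same complex, had 2477 in siHoxa5 and 2705 in siN. MAPRE1 had 4 counts in all, against 916 for MAPRE3 and 586 for MAPRE2. The symbols are spelled as human genes and the sources used here do not say how reads were assigned to them, so a 0 in these rows is no measure of absence from the cells.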
